A study of Homo sapiens with 9 samples.

Results

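NCI-H295R, a human cell line from an adrenocortical carcinoma that produces androgens and the other steroids of the adrenal cortex, was compared after serum starvation and under normal growth. All cells grew for 24 h in medium with serum, insulin, transferrin and selenium. One group then stayed in that medium for 48 h, and the other spent the same 48 h in a serum-free medium that also lacked these supplements. Both groups were the same untreated line, and the labels add only that starved cells are hyperandrogenic. The comparison was defined by these labels and used 6 of the 9 arrays of the series, with 3 arrays per group, lettered A to C, and all 18417 genes that could be named. The other 3 arrays come from starved cells that also received 10 mM metformin, and they are outside the comparison. One carcinoma line in culture is the whole model, and the loss of serum cannot be told apart from the loss of insulin, transferrin or selenium. RNA was hybridized to GeneChip Human Gene 1.0 ST arrays, which measure a transcript with probes along its exons. Values are log2 expression, so a difference of 1 is a doubling.

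As background, serum feeds cells growth factors that act through receptor tyrosine kinases, the kinase ERK and the actin-linked factors SRF and YAP, and most cells deprived of it divide less. Insulin acts through its receptor, the IRS adaptors and AKT, which keeps FOXO transcription factors out of the nucleus. Transferrin brings iron in through the transferrin receptor, and selenium is built into selenoproteins as the amino acid selenocysteine. In the adrenal cortex, lipoproteins of serum supply cholesterol for steroids, and potassium channels, calcium channels and cyclic AMP set the output of hormone.

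The 6 arrays were much alike. Their medians lay between 6.04 and 6.16, as for the metformin arrays, and the correlation over all probe sets was 0.994 to 0.997 between groups and 0.994 to 0.997 among the starved arrays. Starved array B stood farthest from its group, with a mean absolute deviation of 0.121 against 0.0858 and 0.0865 for starved A and C and 0.071 to 0.0783 under normal growth. Starved B also read higher than the other starved arrays for genes of cell types that the line should not hold, and those values stand beside the marker lists further on. The 13 measured adrenocortical markers included CYP11A1 at 11.91, 11.85 and 11.89 and CYP17A1 at 11.40, 11.39 and 11.50 under normal growth, far above the array medians. CYP11B1, the last enzyme of cortisol synthesis, was dim at 5.81, 5.75 and 6.02.

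Starvation shifted few genes far. The change, starved minus normal growth, had a median of -0.00 over the 18417 genes, and its 5th and 95th percentiles were -0.18 and 0.17. A change of 1.5-fold or more was seen in 20 genes that were higher and 62 that were lower in starved cells. With limma over all probe sets and Benjamini-Hochberg adjustment, 42 genes were called at an adjusted p under 0.05, of which 12 were higher, or 0.0652% of all genes, and 30 were lower, or 0.163%. The 10 largest falls all belong to the 12 measured genes of the published list, and so do 7 of the genes called lower. The study took that list at 2-fold and an adjusted p under 0.05. Of its measured genes, CFI (limma adjusted p = 0.0656), PLK2 (0.0749), DUSP10 (0.167) and FREM2 (0.32) were not called here. The remaining 35 called genes, 12 higher and 23 lower, are the subject of the next paragraphs. None of them reached 2-fold, and 20 reached 1.5-fold, 15 of which were lower.

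**Figure D1:**
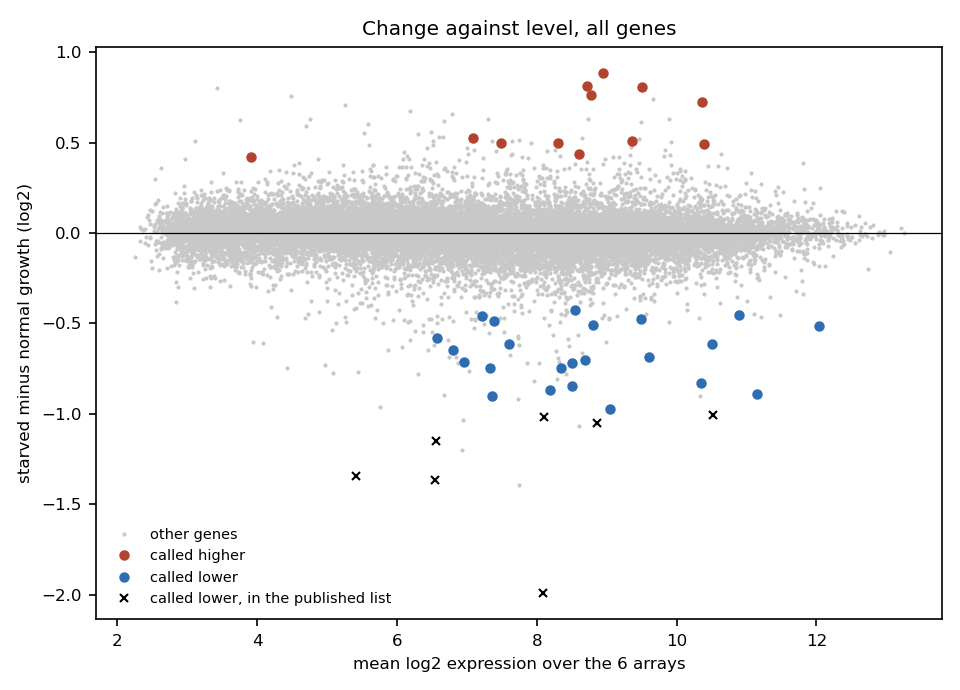
Each point is 1 of 18417 genes, placed by its mean log2 expression over the 6 arrays (x axis) and by its change in starved cells (y axis, log2). Red and blue circles are the 12 and 23 called genes outside the published list, black crosses are 7 called genes of that list, and grey points are genes not called. The called falls outside the list reach -0.97 and the called rises 0.89.

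The calls are narrow ones and depend on all 6 arrays. Leaving out any 1 of the normal growth arrays ended every call, although 1397 to 1567 genes then had p under 0.05 before adjustment, and with starved A, B or C left out 3, 16 and 1 genes were called, of which 3, 13 and 1 were among the 42. With the arrays set to a common median 23 genes were called, 22 of them among the 42, with 3 higher and 20 lower, so the split between rises and falls moved. Restricting the test to probe sets of a single gene raised the number to 154, with 53 higher and 101 lower. With the replicate letter as a block, a pairing that the labels do not state, limma called 0 genes. The direction of all 42 genes held under each of these alternatives, which is no separate support. In all 42 the starved arrays lay to 1 side of the normal growth arrays, so leaving out 1 array could not reverse it. Restricting the probe sets or adding the block leaves the change itself as it was. Because the calls were narrow, a looser description was used beside them. The groups were said not to overlap where every starved array lay above, or below, every normal growth array, which was true for 6.86% of all genes above and 9.62% below. Every count of genes apart and higher, or apart and lower, is to be read against these shares. Before adjustment, 758 of the 18417 genes were higher and 1062 lower at a limma p under 0.05. Counts of list members at that p are to be read against these. For genes that did not pass the test, the signed log2 difference between the group means is given, negative where starved cells were lower. With 3 arrays against 3, an exact permutation test of 1 gene cannot go under p = 0.1.

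**Figure D2:**
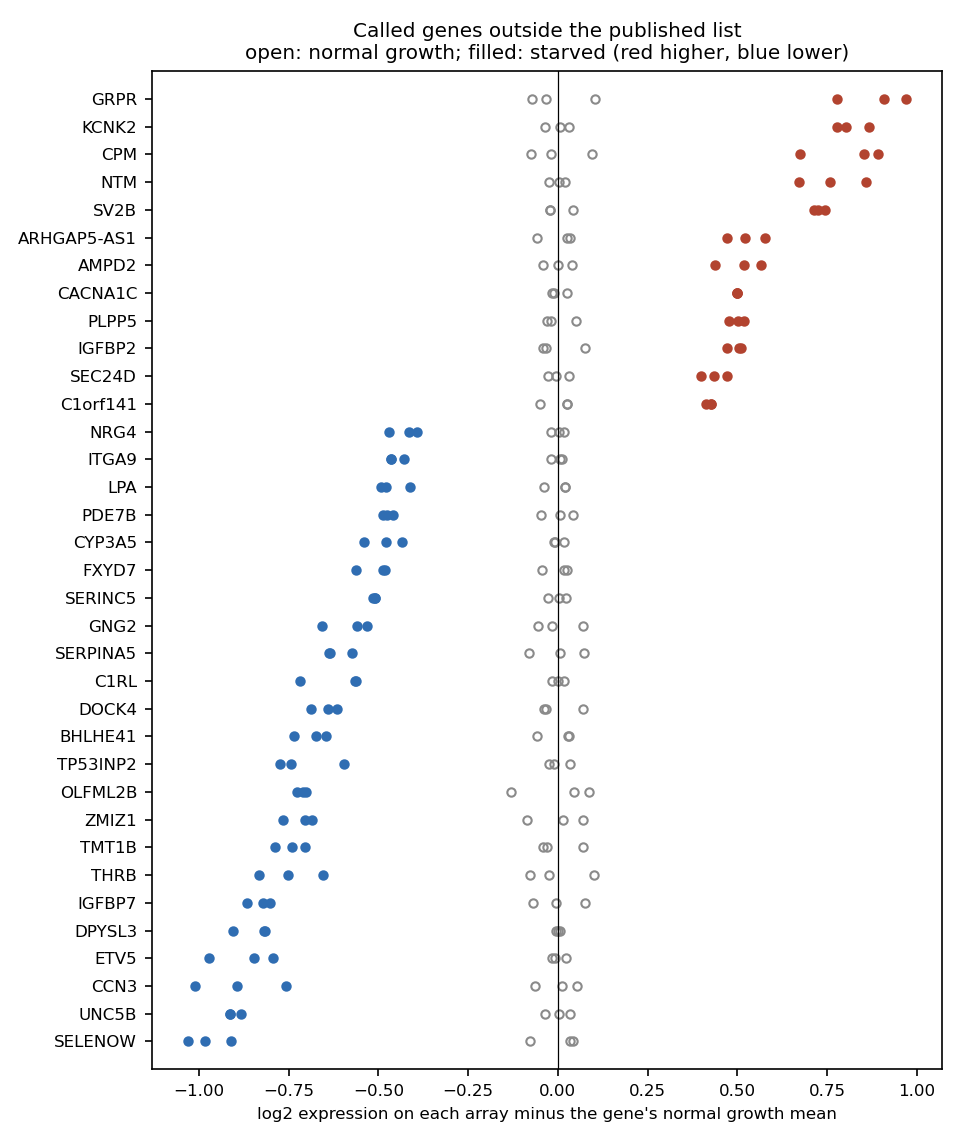
Each row is 1 of the 35 called genes outside the published list, and each point is 1 array, plotted as log2 expression minus the mean of the gene under normal growth. Open grey points are normal growth arrays, red and blue points starved arrays. In every row the groups are apart, from C1orf141 with a change of 0.42 to SELENOW with -0.97.

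Outside the published list, the largest fall was that of SELENOW, selenoprotein W, a small protein with a thioredoxin-like fold whose level is known to depend on selenium supply. Under normal growth it read 9.58, 9.57 and 9.46, and in starved cells 8.62, 8.50 and 8.55. The fall was 1.97-fold, or -0.97 on the log2 scale (SE 0.06, limma adjusted p = 0.0109). It was the single selenoprotein called among 24 measured. Groups did not overlap for 6 lower and 5 higher members, against 9.62% and 6.86% of all genes, and the median change over the list was 0.04. GPX3, the secreted glutathione peroxidase, was at -0.30, SELENOH at -0.27, SELENON at -0.19 and GPX1, the cytosolic glutathione peroxidase, at -0.19. SELENOS, which acts in the removal of misfolded proteins from the endoplasmic reticulum, was at 0.21. None of these passed the test (adjusted p from 0.189 to 0.493). GPX4, which protects membrane lipids, was at -0.03 and TXNRD1, thioredoxin reductase, at 0.04, with overlapping groups for both. Of 8 genes of selenium uptake and selenocysteine incorporation, limma called none and none had p under 0.05 before adjustment. Student's test with the same adjustment, named below as the t-test, called none of them either. The study's methods name Student's test among general statistics and not for the arrays. SECISBP2, which binds the selenocysteine insertion element, read 10.35, 10.22 and 10.35 under normal growth against 10.32, 10.03 and 10.27 in starved cells.

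Iron genes gave no call. Of 20 measured, limma called 0 and the t-test 0, 3 were higher at p under 0.05 before adjustment and 0 lower. TFRC, the transferrin receptor, read 12.28, 12.21 and 12.22 under normal growth and 12.29, 12.20 and 12.31 in starved cells, whose medium held no transferrin. FTL, the ferritin light chain, was at 0.03 with overlapping groups. The members with groups apart were CYBRD1, a ferric reductase, at 0.29, STEAP2, a metalloreductase, at 0.24, and FBXL5, the iron-sensing ubiquitin ligase subunit, at 0.13.

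**Figure D3:**
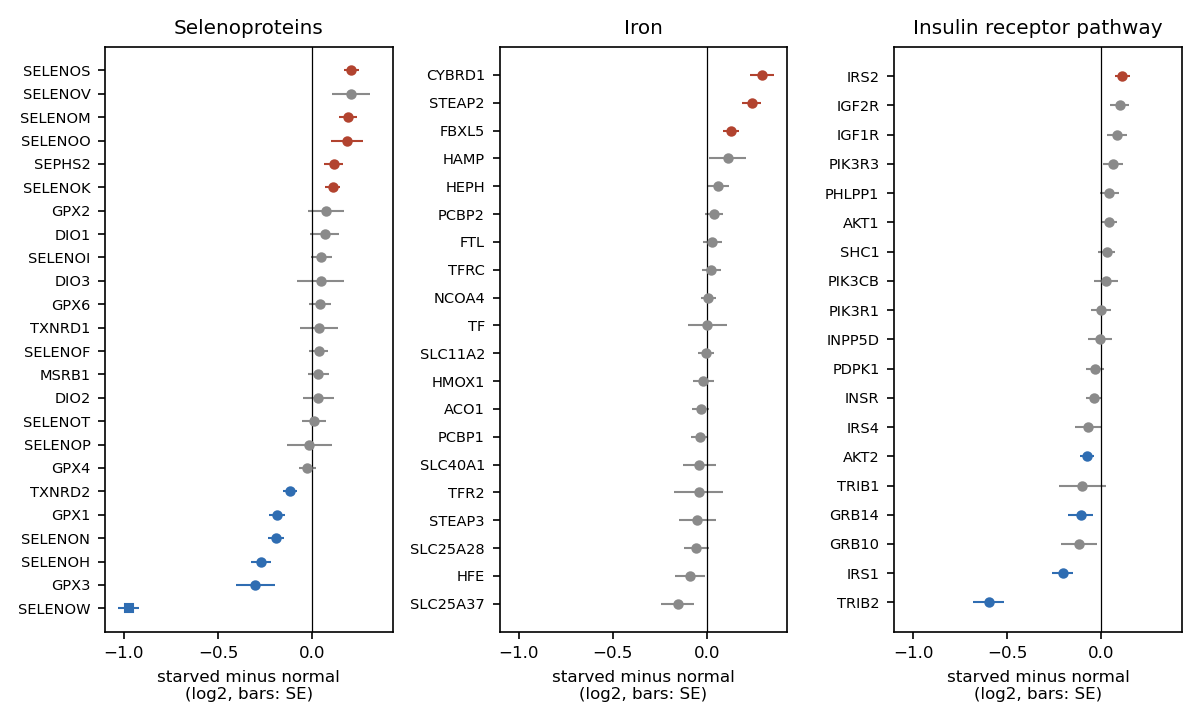
Change in starved cells (x axis, log2, starved minus normal growth, bars are the SE of the limma fit) for 24 selenoproteins, 20 iron genes and 19 genes of the insulin receptor pathway. Red and blue mark genes whose groups do not overlap, grey those that do, and a square marks a called gene. SELENOW is the single square, at -0.97, and TFRC, FTL and INSR lie within 0.04 of 0.

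Insulin pathway genes gave no call either. Among 19 measured, limma called none and the t-test none, with 1 higher and 2 lower at p under 0.05 before adjustment. INSR, the insulin receptor, read 8.64, 8.56 and 8.55 under normal growth against 8.55, 8.55 and 8.54 in starved cells. IRS2, the adaptor that FOXO factors raise, was at 0.11 with groups apart, and IRS1 at -0.21. TRIB2, a pseudokinase that binds AKT, had the largest difference of the list at -0.60 (adjusted p = 0.0963). Of 21 FOXO factors and usual targets, 0 were called by limma or the t-test, 2 were lower at p under 0.05 before adjustment and none higher. Groups were apart and higher for 4 of them and lower for 3, against 6.86% and 9.62% of all genes, and the median was 0.05. FOXO1 itself was at -0.25, and PDK4, a common FOXO target that was bright in these cells, read 12.07, 12.05 and 12.10 under normal growth against 12.18, 12.13 and 12.14 in starved cells.

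Binding proteins of insulin-like growth factors moved in opposite directions. IGFBP7, a secreted protein that binds these growth factors weakly, read 10.83, 10.69 and 10.75 under normal growth and 9.94, 9.89 and 9.96 under starvation, a 1.78-fold fall (SE 0.05 on the log2 scale, adjusted p = 0.0151). IGFBP2, which binds them tightly and which insulin is known to lower in liver, read 10.11, 10.22 and 10.10 under normal growth against 10.65, 10.62 and 10.65 in starved cells, a 1.41-fold rise (adjusted p = 0.0472). These 2 were the called members among 14. IGFBP5 at 0.28 and IGF1 at 0.26 had groups apart without a call, and so did IGFBP3 at 0.10.

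Neither list of cholesterol genes held a call. Of 20 genes of cholesterol synthesis and uptake, 8 had groups apart and higher, against 6.86% of all genes, 2 apart and lower, against 9.62%, and the median change was 0.08. Limma and the t-test called 0, and 6 were higher and 1 lower at p under 0.05 before adjustment. IDI1 was at 0.19, LSS at 0.18, SQLE at 0.16 and SC5D at 0.16, 4 enzymes of the pathway, and HMGCS1, at its start, at 0.14. Of 20 genes of cholesterol efflux and lipoprotein handling, 7 were apart and lower and 2 apart and higher, against the same 9.62% and 6.86%, again with 0 calls by limma or the t-test and with 6 lower and 1 higher at p under 0.05 before adjustment. VLDLR, a lipoprotein receptor, was at -0.52 (adjusted p = 0.0538), ABCA1, the cholesterol exporter, at -0.46, and NCEH1 and LIPE, which hydrolyse cholesteryl esters, at -0.46 and -0.32. MYLIP, which marks lipoprotein receptors for breakdown, was at -0.26. ABCA1 read 7.12, 6.84 and 6.96 under normal growth against 6.54, 6.39 and 6.60 in starved cells, so its groups lay clear of each other. In the list of fatty acid desaturation, elongation and lipid droplets, 5 of 21 were apart and lower, none higher, and 0 were called by limma or the t-test, with 4 lower at p under 0.05 before adjustment. CIDEB, a lipid droplet protein, was at -0.27 and ELOVL5, an elongase, at -0.16. LPA, which encodes apolipoprotein(a), was called lower: it read 7.47, 7.41 and 7.47 under normal growth against 6.97, 6.95 and 7.04 in starved cells (adjusted p = 0.0472).

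Genes that ERK signalling raises held 2 called falls. ETV5, an ETS transcription factor downstream of ERK, read 8.61, 8.62 and 8.65 under normal growth and 7.66, 7.83 and 7.78 in starved cells, a 1.83-fold fall (SE 0.06, adjusted p = 0.017). DUSP6, the phosphatase that switches ERK off, was the other called member of 23 and belongs to the published list. Groups were apart and lower for 8 members and higher for 1, against 9.62% and 6.86% of all genes. SPRED2 was at -0.47, SPRED1 at -0.33, DUSP5 at -0.35 and ETV4 at -0.40, feedback inhibitors and a second ETV factor, none of them called. The median over the whole list was -0.02, close to that of all genes. Of 24 immediate early factors, which serum induces within the first hour, limma and the t-test called 0, with 3 higher and 3 lower at p under 0.05 before adjustment. EGR1 was at -0.45, KLF10 at -0.27 and JUNB at -0.26, whereas NR4A2, an orphan nuclear receptor of the adrenal cortex, was at 0.55 (adjusted p = 0.0538) and NR4A3 at 0.24. NR4A2 read 6.13, 5.94 and 6.02 under normal growth against 6.58, 6.57 and 6.58 in starved cells.

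Among 27 SRF and YAP target genes of the actin skeleton, limma and the t-test called 0. Groups were apart and lower for 7 and higher for 1, against 9.62% and 6.86% of all genes. Before adjustment, 5 were lower and 0 higher at p under 0.05. FHL2, a LIM protein that joins actin signals to transcription, was at -0.62, and ACTA2, smooth muscle actin, at -0.30. ACTG2 was at -0.26 and the calponins CNN3 and CNN2 at -0.24 and -0.18. Of the 6 CCN proteins, secreted regulators of adhesion, 1 was called. CCN3 read 11.53, 11.61 and 11.65 under normal growth and 10.59, 10.84 and 10.70 in starved cells, a 1.85-fold fall from a high level (SE 0.08, adjusted p = 0.0329).

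Most mitotic genes were lower in starved cells, by small amounts. In 26 of 33 measured members every starved array lay below every normal growth array, against 9.62% of all genes, and in none was it above. The median change was -0.19. Limma called 0 of the 33 and the t-test 0. Before adjustment 21 had p under 0.05, all lower, against 1062 lower of all 18417 genes. KIF20A, a kinesin of cell division, read 10.52, 10.44 and 10.51 under normal growth against 10.22, 10.15 and 10.22 in starved cells (adjusted p = 0.148). AURKB, the kinase of the chromosomal passenger complex, read 9.70, 9.78 and 9.86 under normal growth against 9.50, 9.54 and 9.47 in starved cells (adjusted p = 0.209). UBE2C and CDC20, which drive the breakdown of cyclins, were at -0.27 and -0.27, and KIF2C, a microtubule-depolymerizing kinesin, at -0.27. No member reached 1.5-fold. In bulk RNA, fewer dividing cells and less of these transcripts per cell cannot be told apart. By flow cytometry of stained DNA, the study found no significant effect of starvation on the cell cycle of this line. How that result relates to the lower mitotic transcripts was not tested. The mean over the list lay within 0.04 of the normal growth mean on each normal growth array and at -0.13, -0.26 and -0.14 on starved A, B and C. Without starved B the median change was -0.14. The polo-like kinases lay lower too, with 4 of 5 apart and lower, 0 called by limma or the t-test, 4 lower at p under 0.05 before adjustment, and PLK1 at -0.22, PLK3 at -0.19 and PLK4 at -0.18. PLK2, of the published list, was at -1.39.

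DNA replication genes were less uniform. Of 33, 9 were apart and lower and 1 higher, against 9.62% and 6.86% of all genes, and the median was -0.07. Limma and the t-test called 0, with 6 lower and 1 higher at p under 0.05 before adjustment. MCM10 was at -0.27, TK1, thymidine kinase, at -0.25, and GINS1 at -0.15, whereas MCM6, a helicase subunit, was at 0.16. Of 24 cyclins, E2F factors and CDK inhibitors, 5 were apart and lower and 2 higher, against the same shares. Limma and the t-test called 0, with 4 lower and 1 higher at p under 0.05 before adjustment. CCNE1, a cyclin of S phase entry, was at -0.28, E2F8 at -0.25, and CDK6, a G1 kinase, at 0.28.

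Many mitotic promoters carry the cell cycle homology region, TTTGAA, through which the DREAM and MuvB complexes act, and the promoters of members with the largest differences among those that hold it are shown for that reason. Promoters are those of RefSeq (GRCh38.p14), from 250 bases before to 50 after the first listed start, and TTTGAA was searched on both strands. It was found in 18 of the 26 mitotic genes with a listed promoter, against 11.9% of 14239 promoters of measured genes. Both sequences run 5′ to 3′ along the gene, with each match in capitals (TTCAAA is the motif on the other strand).
CDC20, chr1:43358731-43359030, plus strand: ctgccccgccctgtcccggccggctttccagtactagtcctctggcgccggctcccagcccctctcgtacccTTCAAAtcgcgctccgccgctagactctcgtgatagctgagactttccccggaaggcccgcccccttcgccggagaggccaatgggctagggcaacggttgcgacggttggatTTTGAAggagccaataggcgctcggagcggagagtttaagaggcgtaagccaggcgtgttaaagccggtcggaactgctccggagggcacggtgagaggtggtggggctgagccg
DLGAP5, chr14:55191536-55191835, minus strand: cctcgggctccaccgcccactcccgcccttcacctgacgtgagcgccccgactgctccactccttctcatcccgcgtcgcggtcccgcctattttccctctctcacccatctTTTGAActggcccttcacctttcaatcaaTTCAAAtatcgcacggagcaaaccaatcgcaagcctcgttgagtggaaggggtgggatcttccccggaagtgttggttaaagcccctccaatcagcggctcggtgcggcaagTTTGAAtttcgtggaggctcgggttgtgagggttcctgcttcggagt
In CDC20 the matches begin 178 and 65 bases before the start, and in DLGAP5, a spindle protein with a change of -0.23, at 138 and 109 bases before it and once more after it. Of the 18 mitotic genes with the motif, 12 had groups apart and lower, with a median change of -0.16, and of the 8 without it all 8 did, with a median of -0.23. A match is a run of letters and no evidence of a bound factor.

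**Figure D4:**
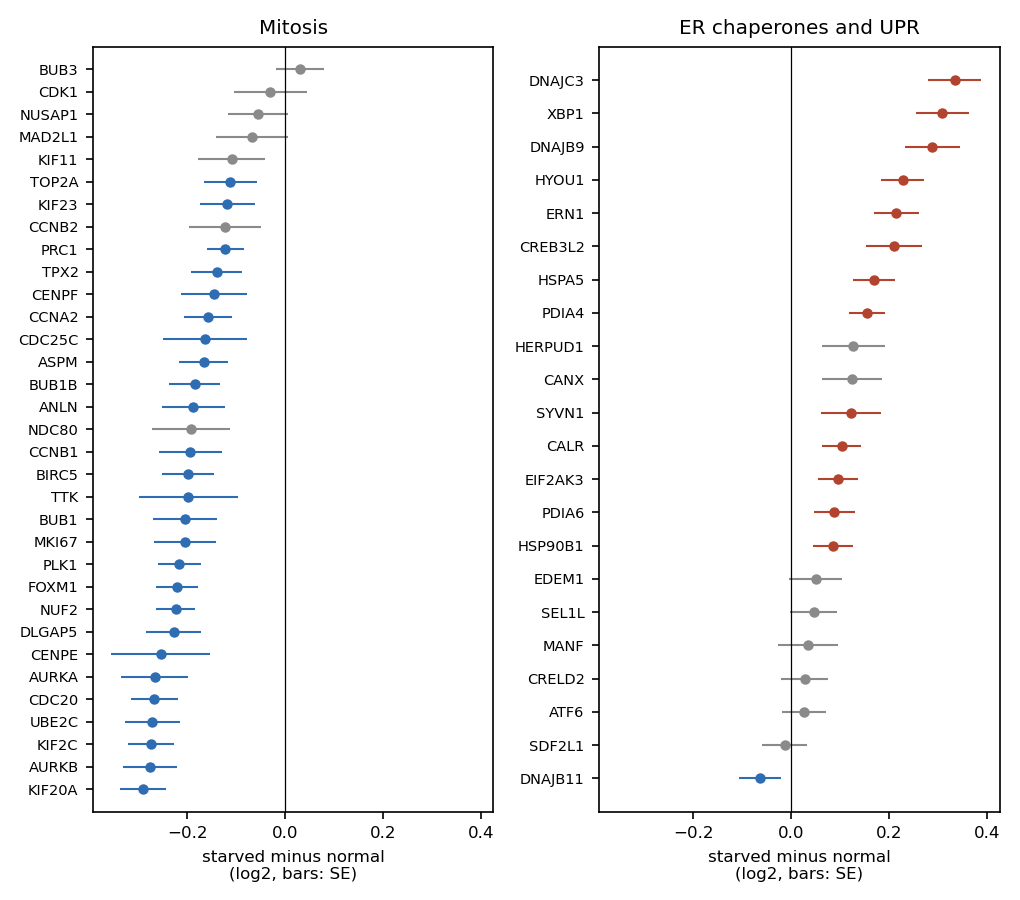
Change in starved cells (x axis, log2, starved minus normal growth, bars are the SE of the limma fit) for 33 mitotic genes and 22 genes of endoplasmic reticulum (ER) chaperones and the unfolded protein response (UPR). Blue and red mark genes whose groups do not overlap, lower or higher, and grey those that do. The mitotic genes lie left of 0 but for BUB3, with 26 in blue, and 13 of the ER genes are red.

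Many genes of protein folding in the endoplasmic reticulum were higher, also by small amounts. Of 22 measured, 13 had groups apart and higher, against 6.86% of all genes, and 1, the co-chaperone DNAJB11 at -0.06, lower. The median change was 0.11. Limma called 0 and the t-test 1. Before adjustment 9 were higher at p under 0.05 and 0 lower, against 758 and 1062 of all 18417 genes. DNAJC3, an inhibitor of the kinase PERK, read 9.91, 9.80 and 9.82 under normal growth and 10.21, 10.11 and 10.22 in starved cells (adjusted p = 0.151). XBP1, the transcription factor of the unfolded protein response, read 9.32, 9.33 and 9.35 under normal growth against 9.55, 9.70 and 9.68 in starved cells (adjusted p = 0.169). DNAJB9 was at 0.29, HYOU1 at 0.23, both chaperones or their partners, and ERN1, the kinase that splices XBP1, at 0.21. The 3 starved arrays lay close together, with list means of 0.12, 0.13 and 0.12 above normal growth. SEC24D, a coat subunit of the vesicles that carry cargo out of the endoplasmic reticulum, was called higher: it read 8.36, 8.38 and 8.41 under normal growth against 8.85, 8.78 and 8.82 in starved cells (SE 0.04, adjusted p = 0.0472).

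The ER stress response element, a CCAAT box followed by 9 bases and CCACG, is the site through which ATF6 is known to act with NF-Y, and the promoters of XBP1 and HSPA5 are shown because they hold it and lead the members that do. Written out it is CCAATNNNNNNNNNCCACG, and it was searched on both strands of the same RefSeq promoters. It was found in 6 of 22 members, against 0.119% of 14239 promoters.
XBP1, chr22:28800520-28800819, minus strand: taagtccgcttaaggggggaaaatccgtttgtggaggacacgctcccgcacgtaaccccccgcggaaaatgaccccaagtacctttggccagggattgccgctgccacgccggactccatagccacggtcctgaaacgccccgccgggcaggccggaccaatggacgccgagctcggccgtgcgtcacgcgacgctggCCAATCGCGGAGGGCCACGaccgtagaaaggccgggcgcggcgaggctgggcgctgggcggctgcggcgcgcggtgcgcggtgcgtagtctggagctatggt
HSPA5, chr9:125241294-125241593, minus strand: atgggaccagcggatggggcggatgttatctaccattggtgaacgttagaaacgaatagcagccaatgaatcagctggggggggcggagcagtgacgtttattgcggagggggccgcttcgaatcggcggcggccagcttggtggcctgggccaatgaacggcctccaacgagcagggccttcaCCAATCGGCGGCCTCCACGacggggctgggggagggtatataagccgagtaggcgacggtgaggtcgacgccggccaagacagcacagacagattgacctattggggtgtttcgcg
The element, in capitals, begins 52 bases before the start in XBP1 and 66 in HSPA5, the most abundant chaperone of the compartment, which read 11.91, 11.84 and 11.87 under normal growth against 12.07, 12.01 and 12.05 in starved cells, a change of 0.17. Groups were apart and higher in 4 of the 6 members with the element and in 9 of the 16 without it, with medians of 0.11 and 0.11.

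Stress lists near the endoplasmic reticulum showed less. Of 25 genes of the integrated stress response and amino acid synthesis, 6 were apart and higher and 3 lower, against 6.86% and 9.62% of all genes. Limma and the t-test called 0, with 7 higher and 2 lower at p under 0.05 before adjustment. SLC7A11, the cystine transporter, was at 0.43, NUPR1 at 0.37 and ASNS, asparagine synthetase, at 0.30, whereas CEBPB, a transcription factor, was at -0.61 (adjusted p = 0.0556). ALDH1L2, a mitochondrial folate enzyme and 1 of the 10 largest rises, read 5.12, 4.82 and 4.76 under normal growth against 5.68, 5.47 and 5.68 in starved cells (adjusted p = 0.146). Of 25 NRF2 targets and glutathione genes, 7 were apart and higher and 1 lower, against the same shares. Limma and the t-test called 0, with 4 higher and 1 lower at p under 0.05 before adjustment. NQO1, a quinone reductase, was at 0.37 and GCLC, of glutathione synthesis, at 0.16. Their list mean was 0.11 on starved A, -0.02 on B and 0.10 on C. Autophagy and lysosome genes gave 4 apart and higher and 2 lower of 29, against the same shares. Limma and the t-test called 0, with 2 higher and 1 lower at p under 0.05 before adjustment. CTSB, a lysosomal protease, was at -0.33. TP53INP2, a nuclear co-activator that also takes part in autophagosome formation, was called lower: it read 9.02, 9.08 and 9.04 under normal growth against 8.27, 8.45 and 8.30 in starved cells (adjusted p = 0.0329).

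GRPR, the receptor of gastrin-releasing peptide, had the largest rise of all genes, from 8.43, 8.61 and 8.47 to 9.48, 9.28 and 9.41, which is 1.85-fold (SE 0.07, adjusted p = 0.0329). It was the single called gene among 34 peptide and hormone receptors. TSHR, the thyrotropin receptor, was at -0.45 and AGTR1, the angiotensin II receptor of the adrenal cortex, at -0.14. KCNK2, a two-pore potassium channel of the background type that helps set the resting potential of adrenocortical cells, read 8.34, 8.27 and 8.31 under normal growth against 9.17, 9.08 and 9.11 in starved cells, a 1.76-fold rise (SE 0.05, adjusted p = 0.0109). CACNA1C, the pore subunit of an L-type calcium channel, read 7.22, 7.22 and 7.26 under normal growth against 7.73, 7.73 and 7.73 in starved cells (adjusted p = 0.0244). Its 3 starved arrays carry 1 identical value, so their spread of 0 is no measure of biological variation, and its other probe set was at 0.41 without a call (adjusted p = 0.177).

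These 2 channels were the called members of 25 potassium and calcium channels. Groups were apart and higher for 8 and lower for 4, against 6.86% and 9.62% of all genes. KCNK3, the related background channel, was at -0.39, opposite to KCNK2, while CACNA1B was at 0.32 and KCNMA1, a calcium-gated potassium channel, at 0.30. The list median of 0.08 fell to 0.00 without starved B. KCND2, a voltage-gated potassium channel, and SLC9A2, a sodium-proton exchanger, were among the 10 largest rises at 0.66 and 0.68 without a call.

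SV2B, a glycoprotein of synaptic vesicles, read 9.99, 10.05 and 9.98 under normal growth and 10.75, 10.72 and 10.73 in starved cells, a 1.66-fold rise (SE 0.04, adjusted p = 0.0109), the called gene among 27 of vesicle exocytosis. RIMS2, RAB3B and SNAP25, of the release machinery, were at 0.26, 0.23 and 0.21, and SYP, synaptophysin, at -0.18. NTM, neurotrimin, a membrane-anchored adhesion protein, read 8.42, 8.40 and 8.38 under normal growth against 9.16, 9.07 and 9.26 in starved cells, a 1.70-fold rise (SE 0.06, adjusted p = 0.0244). It was the called gene of 27 neuronal adhesion molecules, of which 6 were apart and higher and 2 lower, against 6.86% and 9.62% of all genes. NRCAM was at 0.32, CHL1 at 0.27 and CADM1 at -0.19. The adhesion list had a median of 0.05, which was -0.01 without starved B. Chromogranins and prohormone processing genes had 1 apart and higher and 1 lower of 11, against the same shares. Limma and the t-test called 0, and 1 was lower at p under 0.05 before adjustment, SCG5 at -0.33.

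UNC5B, a netrin receptor, read 7.81, 7.84 and 7.77 under normal growth against 6.92, 6.89 and 6.89 in starved cells, a 1.87-fold fall and the smallest adjusted p outside the published list (SE 0.04, adjusted p = 0.00648). DPYSL3, a tubulin- and actin-binding protein of growth cones, read 8.93, 8.92 and 8.92 under normal growth against 8.11, 8.02 and 8.11 in starved cells (adjusted p = 0.00908). DOCK4, an exchange factor for the GTPase RAC1, fell by 0.65, from 7.20, 7.09 and 7.10 to 6.44, 6.49 and 6.51. Among 31 axon guidance ligands and receptors, UNC5B was the called gene and the median was 0.03. In this list 6 were apart and higher and 4 lower, against 6.86% and 9.62% of all genes. NRP2 and NRP1, the semaphorin co-receptors, were at -0.29 and -0.29, NTN4, a netrin, at -0.20, and ROBO2, a SLIT receptor, at 0.37.

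Cyclic AMP genes held 1 call. PDE7B, a cyclic AMP phosphodiesterase, read 9.68, 9.74 and 9.77 under normal growth and 9.26, 9.27 and 9.25 in starved cells (adjusted p = 0.0407). PDE11A and PDE2A, other phosphodiesterases known in the adrenal cortex, were at -0.46 and -0.28, PKIA, an inhibitor of protein kinase A, at 0.21, and ADCY3, an adenylyl cyclase, at 0.16. Of 36 genes of the list, 8 were apart and higher and 6 lower, against 6.86% and 9.62% of all genes, and the median was -0.00. GNG2, a G protein gamma subunit outside that list, fell by 0.58 from 6.82, 6.94 and 6.85 to 6.31, 6.21 and 6.34 (adjusted p = 0.0472), while its second, dimmer probe set was at -0.14 (adjusted p = 0.82).

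Nuclear receptors outside the retinoid list gave 1 call of 25 measured. THRB, thyroid hormone receptor beta, read 7.63, 7.80 and 7.68 under normal growth against 6.87, 7.05 and 6.95 in starved cells, a 1.68-fold fall (SE 0.07, adjusted p = 0.0431). ESR2, estrogen receptor beta, was at -0.35, PPARA at 0.23, RORA at 0.19 and RORB at -0.15. ZMIZ1, a co-activator of nuclear receptors and SMAD factors, read 8.88, 8.78 and 8.93 under normal growth against 8.16, 8.18 and 8.10 in starved cells (adjusted p = 0.0244). CYP3A5, which hydroxylates steroids and drugs, read 7.61, 7.62 and 7.64 under normal growth against 7.08, 7.14 and 7.19 in starved cells (adjusted p = 0.0431). CYP3A5 and LPA have close paralogs, and how far their probes separate them was not tested.

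Retinoid genes held 1 call. RARB, of the published list, was the called gene of 20 and read 6.02, 6.09 and 6.14 under normal growth against 4.89, 4.61 and 4.71 in starved cells. TGM2, a transglutaminase that retinoic acid is known to raise, was at -0.45, STRA6, the retinol carrier at the membrane, at -0.43, RARG at -0.29 and LRAT, which esterifies retinol, at -0.25. Groups were apart and lower for 5 and higher for 1, against 9.62% and 6.86% of all genes, and the median was -0.04. RARB is known to be under the control of its own ligand through a direct repeat of GTTCA in its promoter, and the sequence is shown because the call rests on that gene. The pattern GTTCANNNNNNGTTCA, on both strands, was found in 1 of 18 retinoid genes with a listed promoter, RARB, and in 0.0562% of 14239 promoters.
RARB, chr3:25428013-25428312, plus strand: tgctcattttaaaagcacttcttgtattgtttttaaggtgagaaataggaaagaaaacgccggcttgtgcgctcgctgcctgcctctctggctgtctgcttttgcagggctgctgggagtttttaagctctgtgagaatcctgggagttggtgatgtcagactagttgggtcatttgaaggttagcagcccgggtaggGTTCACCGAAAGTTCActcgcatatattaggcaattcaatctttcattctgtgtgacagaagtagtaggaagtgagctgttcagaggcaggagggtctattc
The repeat, in capitals, begins 52 bases before the first listed start.

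Clock genes held 1 call. BHLHE41, a repressor of the clock factors CLOCK and BMAL1, read 9.89, 9.98 and 9.98 under normal growth and 9.22, 9.31 and 9.28 in starved cells, a 1.61-fold fall (SE 0.05, adjusted p = 0.0203). It was the called gene of 19. Its close relative BHLHE40 had a larger difference and a wider spread, from 8.59, 8.51 and 8.97 to 7.74, 8.11 and 7.79 (change -0.81, adjusted p = 0.191). HLF and DBP, output factors of the clock, were at -0.50 and -0.43, and PER2 at -0.27. Groups were apart and lower for 7 of 19, against 9.62% of all genes, and higher for 1, RORA, against 6.86%, and the median was -0.06. The list means of starved A, B and C were -0.13, -0.15 and -0.13.

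Matrix and surface genes held 2 called falls. OLFML2B, a secreted olfactomedin family protein, read 7.18, 7.40 and 7.36 under normal growth against 6.59, 6.61 and 6.60 in starved cells (adjusted p = 0.0423), and ITGA9, an integrin alpha chain, 11.12, 11.10 and 11.13 under normal growth against 10.65, 10.68 and 10.65 in starved cells (adjusted p = 0.0329). Of 25 basement membrane genes limma and the t-test called 0, with 3 higher and 5 lower at p under 0.05 before adjustment. NID2, a nidogen, was at 0.63, COL4A1 at -0.22 and LAMC1 at -0.21, and FREM2, of the published list, at -1.03. Of 32 genes of fibrillar matrix and remodelling, 7 were apart and lower and 2 higher, against 9.62% and 6.86% of all genes. Limma called 0 and the t-test 1, and 5 were lower and 0 higher at p under 0.05 before adjustment. FN1, fibronectin, read 8.20, 7.69 and 7.98 under normal growth against 7.44, 7.04 and 7.38 in starved cells, a difference of -0.67 with a wide spread (adjusted p = 0.303), and TIMP2, a protease inhibitor, was at -0.39.

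Peptidases of the membrane included the called rise of CPM, carboxypeptidase M, from 9.08, 9.19 and 9.02 to 9.99, 9.77 and 9.95, which is 1.75-fold (SE 0.08, adjusted p = 0.0452). MME, neprilysin, was at 0.38 and CPD, carboxypeptidase D, at 0.18, whereas FAP, fibroblast activation protein, was at -0.92 (adjusted p = 0.146) and DPP4, its relative, at -0.30. Among 18 peptidases, 4 were apart and higher and 2 lower, against 6.86% and 9.62% of all genes. SERPINA5, the protein C inhibitor, fell by 0.61, from 10.89, 10.74 and 10.82 to 10.18, 10.18 and 10.24 (adjusted p = 0.0359), and C1RL, a complement C1r-like protease, by 0.61, from 7.93, 7.90 and 7.92 to 7.35, 7.20 and 7.36 (adjusted p = 0.0423).

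Enzymes and other called genes complete the set. AMPD2, which deaminates AMP, read 9.15, 9.11 and 9.07 under normal growth against 9.68, 9.55 and 9.63 in starved cells (adjusted p = 0.049), the called gene of 19 of purine deamination and salvage, where IMPDH2, of guanine nucleotide synthesis, was at -0.22. PLPP5, a phosphatase of phosphatidate and related lipids, read 8.02, 8.03 and 8.10 under normal growth against 8.53, 8.57 and 8.55 in starved cells (adjusted p = 0.0352). Its relatives PLPP1 and PLPP3 were at 0.21 and -0.29, on opposite sides of 0. In that family 2 of 15 were apart and higher and 3 lower, against 6.86% and 9.62% of all genes. TMT1B, a thiol methyltransferase, fell by 0.74, from 8.70, 8.68 and 8.80 to 7.98, 7.94 and 8.02. SERINC5, a membrane protein known for limiting retroviruses, fell by 0.51, from 12.31, 12.26 and 12.29 to 11.78, 11.77 and 11.78. FXYD7, a regulator of the sodium pump, fell by 0.51 and NRG4, a ligand of the receptor ERBB4, by 0.43. ARHGAP5-AS1, an antisense transcript, rose by 0.52, and how far its probes separate it from overlapping genes was not tested. C1orf141, an open reading frame of unknown role, rose by 0.42 but was dimmer than the array medians in both groups, at 3.72, 3.65 and 3.72 under normal growth against 4.12, 4.13 and 4.11 in starved cells.

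Among arginine, urea and polyamine genes, ASS1, argininosuccinate synthase of the published list, was the called gene of 24, and ARG2, GATM and SLC7A2 were at 0.33, 0.34 and 0.18. Of 26 Wnt and beta-catenin targets limma and the t-test called 0, with 7 apart and higher and 2 lower, against 6.86% and 9.62% of all genes. Before adjustment, 6 were higher and 1 lower at p under 0.05. DKK1 and DKK3, Wnt antagonists and a relative, were at 0.38 and 0.38, APCDD1 at 0.21, and WNT11, a ligand, at -0.45 (adjusted p = 0.0538). Of 21 Notch genes 0 were called by limma or the t-test, and 3 were apart and lower and 1 higher, against the same shares. Before adjustment, 3 were lower and 1 higher at p under 0.05. HES1 was at -0.55, JAG1 at -0.39 and NOTCH1 at 0.20. Of 23 interferon and NF-kB genes 7 were apart and lower and none higher, against 9.62% and 6.86% of all genes, with 0 calls by limma or the t-test and with 5 lower at p under 0.05 before adjustment. IRF9, the DNA-binding subunit of the interferon-activated complex, had by far the largest difference of that list, from 8.24, 8.32 and 8.53 to 7.63, 7.61 and 7.40 (change -0.82, adjusted p = 0.0761), with IFIT1 at -0.38 and TNFAIP3 at -0.24. Of the remaining large rises, ZNF578 at 0.80 and LINC02901 at 0.76 were dim and not called.

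**Figure D5:**
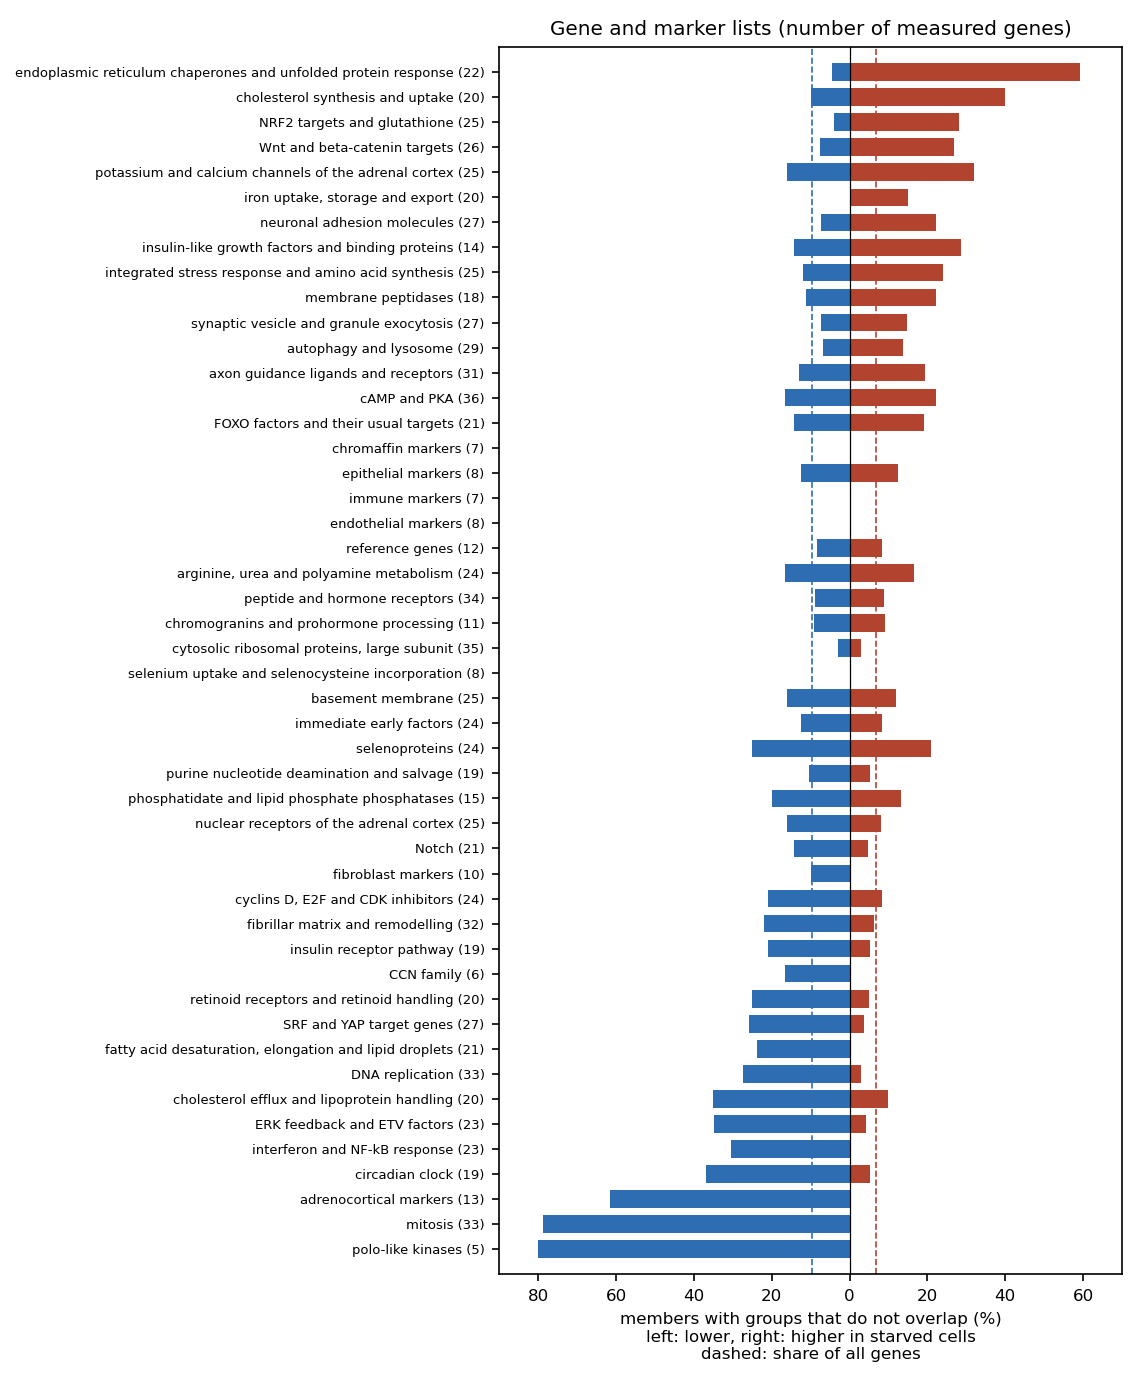
Each row is 1 gene or marker list, with its number of measured genes in brackets. Bars give the percent of members whose groups do not overlap, to the left (blue) for lower and to the right (red) for higher in starved cells, and dashed lines give the shares of all genes, 9.62% and 6.86%. Polo-like kinases (4 of 5), mitosis (26 of 33) and adrenocortical markers (8 of 13) reach farthest left and ER chaperones (13 of 22) farthest right.

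Ribosomal and reference genes lay close to 0. Of 35 ribosomal proteins of the large subunit 1 was apart and higher and 1 lower, against 6.86% and 9.62% of all genes, with a median of 0.00. Of 12 reference genes 1 was apart each way, also with a median of 0.00. Limma and the t-test called 0 in both lists, and at p under 0.05 before adjustment there was 1 higher ribosomal protein, RPL22, and no reference gene.

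Most adrenocortical markers were lower. Of 13 measured, 8 were apart and lower and none higher, against 9.62% of all genes, and the median was -0.18, or -0.15 without HSD3B2 of the published list, which was the called member. STAR, the protein that brings cholesterol into mitochondria, read 11.72, 11.66 and 11.76 under normal growth against 11.25, 11.21 and 11.31 in starved cells (adjusted p = 0.0583). SULT2A1, which sulfates adrenal androgens, was at -0.37, FDX1, the electron donor of mitochondrial steroid enzymes, at -0.28, and INHA, an inhibin subunit, at -0.22. CYP11A1 and CYP17A1, the enzymes at the entry to steroids and to androgens, were at -0.02 and -0.08 with overlapping groups.

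Markers of other cell types were called in no list, by limma or by the t-test. At p under 0.05 before adjustment, 1 of 10 fibroblast markers was lower, FAP, and 1 of 8 epithelial markers was higher, EPCAM at 0.33, and 1 lower, CLDN4 at -0.28, with none of 8 endothelial, 7 immune or 7 chromaffin markers. The defining fibroblast genes DCN, LUM and POSTN were near the bottom of the scale, with means of 3.25, 2.79 and 3.10 under normal growth, as was the immune marker PTPRC at 3.02 and the endothelial marker PECAM1 at 3.88. On starved B the list means were above normal growth by 0.19 for chromaffin, 0.17 for endothelial, 0.19 for epithelial and 0.10 for immune markers, whereas on starved A they were -0.05, -0.08, 0.00 and -0.05 and on starved C 0.00, -0.03, -0.05 and -0.15. Starved B also had the lowest list means for mitosis and DNA replication, and its part in those results was not tested beyond the values given without it.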

How the data were processed

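The authors hybridized the RNA to single-colour arrays, and the deposited values are log2 expression values of 33297 probe sets on 9 arrays. The submitters' processing notes name Expression Console, RMA and limma, and the methods name Affymetrix Power Tools. RMA corrects background, quantile normalizes the arrays and summarises probes by median polish. Versions of these were not given in the sources read. The methods describe 3 independent experiments.

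By the array annotation, 19460 probe sets have 1 symbol, 1754 have several and 12083 have none, and 19429 of the first kind matched RefSeq by Entrez identifier. For 769 genes the brightest probe set was used, which left 18417 genes. The 6 arrays were fitted in R 4.3.3 with limma 3.58.1 (lmFit, then eBayes) without a block, with Benjamini-Hochberg adjustment over all probe sets. The procedure was tested on simulated data.

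The members, the 42 gene lists and the 6 marker lists were chosen with earlier results of these data known. Named are all called genes outside the published list, the 10 largest rises with groups apart, up to 5 leading members of a list, and the genes that handle what the starvation medium lacks. Other genes, and the promoter motifs, were chosen after their values were seen. Alternatives were another scaling, filter, probe set choice, eBayes option or test, a block, and each array left out. Some genes are not analysed here. The number of arrays limits the precision.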

Additional observations from a re-analysis of the deposited data

How the results depend on the processing

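The 42 called genes kept their direction under all 16 alternatives in which they were tested, and between 0 and 42 of them stayed called. With 1 array left out the direction was fixed beforehand, since the groups of all 42 do not overlap. Other fits of the same values leave the change as it is. Genes called higher, 12 as reported, numbered 3 with arrays at a common median, where 20 were lower, and 7 without probe sets of identical values. Counts higher and lower rose to 38 and 88 without dim probe sets (mean under the 40th percentile), 53 and 101 with single-gene probe sets only, 52 and 103 with probe sets averaged per gene, and 34 and 78 with eBayes set to trend and robust. The first 3 of these test fewer features, and for the eBayes options the cause was not tested. The t-test called 17 lower and 13 higher, 30 in all, 11 of them among the 42. With 1 array left out, 0 to 5 genes were called higher and 0 to 11 lower. All 9 arrays in the fit and a further quantile normalization gave 46 and 48 genes.

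Whether the letters A, B and C pair the arrays is not given in the labels, and the arrays were treated as unpaired. Deviations from the group means correlated at 0.0903 for A, 0.134 for B and 0.024 for C, and starved C correlated more with normal growth A, at 0.0395. The other pairs of unlike letters lay between -0.11 and 0.0144. Seen from each normal growth array, the same letter gave the highest value for A, B and C. Seen from each starved array, it did so for A and B. With the replicate letter as a block, 0 genes were called higher and 0 lower by limma, with 1673 genes at an unadjusted p under 0.05. Changes of the called genes ranged from 0.915 to 1.09 times the reported value with 1 array left out. With probe sets averaged per gene, the lowest was 0.623 times the reported value.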

Other observations

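Of 50 probe sets called, 4 carry several gene symbols and 4 none, and these 8 are not counted among the called genes. Those with several symbols were all lower in starved cells on the log2 scale. PELO and ITGA1 share a probe set at -0.45. All the others are shared by CYP21A2 and CYP21A1P, at -0.87 to -0.88 (limma adjusted p = 0.017), and so do not stand for separate genes. The study also reported CYP21A2 as lower, with a test by qRT-PCR. Of those with no symbol, 2 were higher, at 0.73 and 0.75, and 2 lower, at -0.95 and -1.31 (adjusted p = 0.00519 for the last).

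The 3 arrays of starved cells with 10 mM metformin give the levels of the same genes in a further condition, outside the comparison. SELENOW read 8.79, 8.91 and 8.77 there, IGFBP7 10.20, 10.04 and 10.30, and ETV5 8.05, 7.66 and 8.17. C1RL, called lower in starvation, read 8.23, 8.43 and 8.30 with metformin. SV2B read 10.45, 10.37 and 10.26, and KCNK2 8.64, 8.61 and 8.52. CACNA1C read 8.63, 8.83 and 8.40, PLPP5 9.74, 9.48 and 9.64, and SEC24D 9.43, 9.14 and 9.43.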
